A study of Mus musculus with 14 samples.

Results

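Narrow H3K4me3 peaks at gene ends that carried no H3K4me1 in untreated mouse embryonic stem cells were followed into cells treated to inhibit or delete Mll1. They were chosen from the untreated H3K4me3 peak list as peaks shorter than 5000 bp, within 1.0 kb of either end of a protein-coding gene on mm10, and overlapping no peak of the untreated H3K4me1 list. The rule found 404 peaks. They made up 2.84% of the 14217 narrow gene-end peaks and 0.764% of all 52912 untreated H3K4me3 peaks. Width and the absence of H3K4me1 were measured values used for the choice, so neither they nor the direction of the H3K4me1 counts below are findings.

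Methylation of histone H3 lysine 4 is laid down by the Mll/Set1 family of enzymes and comes in mono-, di- and trimethylated forms. Trimethylation (H3K4me3) marks the start sites of active and poised genes, and monomethylation (H3K4me1) is typical of enhancers and of the shoulders on either side of an H3K4me3 peak. At most embryonic stem cell promoters with CpG islands the marks lie side by side. Mll1 (Kmt2a) is a member of this enzyme family and is known for maintaining Hox gene expression.

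All cells, the untreated ones included, had floxed Mll1 alleles together with a Cre recombinase that tamoxifen switches on, on a C57BL/6J background. They were grown without feeder cells. The conditions were no treatment, 100 µM of MM-401, an inhibitor of MLL1, and 5 µM of 4-hydroxytamoxifen (4-OHT) to delete Mll1, with both treatments lasting 9 days and 3 passages. H3K4me1, H3K4me2 and H3K4me3 were mapped by chromatin immunoprecipitation in each of the 3 conditions and Mll1 in untreated cells alone, with 1 library per group. Mll1 occupancy after 4-OHT was not analysed here, so the deletion itself is not checked by these data, and other actions of 4-OHT cannot be told apart from it.

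Filtered tags, with M for 1000000 tags, numbered 36.9, 22.2 and 61.8 M for H3K4me1 in untreated, MM-401 and 4-OHT cells, and 25.3, 12.9 and 26.4 M for H3K4me3. Per the file headers the MM-401 libraries were processed in a folder apart from all others, so MM-401 and batch cannot be told apart. Of 8 embryonic stem cell marker genes 7 had H3K4me3 in each condition, Esrrb being the exception. Gene-end H3K4me3 was also present at 4 of 5 fibroblast, 3 of 4 primitive endoderm and 3 of 4 trophoblast markers, and none of these 21 genes was among those studied. With no replicates, no test between conditions was made. Intervals are exact 95.0% intervals (Clopper-Pearson for shares, Poisson for tags) and cover counting error only.

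The sequences at these promoters were of several kinds, and 5 are shown from the RefSeq promoter table (GRCm38.p6, 250 bases before to 50 after the annotated start), with each CG in capitals. Grm7 (chr6:110645348-110645647, plus strand) and Agtr1b (chr3:20367128-20367427, minus strand) stand for peaks that showed H3K4me1 after both treatments. Irak2 (chr6:113638217-113638516, plus strand) showed it after 4-OHT alone. Aida (chr1:183296810-183297109, plus strand) and Gm9257 (chr12:19606348-19606647, plus strand) had no H3K4me1 peak in any of the 3 lists.
Grm7: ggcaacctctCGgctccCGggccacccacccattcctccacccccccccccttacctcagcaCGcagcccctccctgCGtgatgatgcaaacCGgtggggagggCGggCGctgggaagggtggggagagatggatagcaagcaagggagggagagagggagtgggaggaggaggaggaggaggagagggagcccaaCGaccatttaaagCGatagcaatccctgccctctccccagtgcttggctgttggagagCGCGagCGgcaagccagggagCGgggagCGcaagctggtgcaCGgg
Agtr1b: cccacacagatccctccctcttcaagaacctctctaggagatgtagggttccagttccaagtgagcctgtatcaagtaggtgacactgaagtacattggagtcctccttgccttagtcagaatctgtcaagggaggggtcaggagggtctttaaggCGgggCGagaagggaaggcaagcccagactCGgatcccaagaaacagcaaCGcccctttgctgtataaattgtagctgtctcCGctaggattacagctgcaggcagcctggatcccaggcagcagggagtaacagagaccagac
Irak2: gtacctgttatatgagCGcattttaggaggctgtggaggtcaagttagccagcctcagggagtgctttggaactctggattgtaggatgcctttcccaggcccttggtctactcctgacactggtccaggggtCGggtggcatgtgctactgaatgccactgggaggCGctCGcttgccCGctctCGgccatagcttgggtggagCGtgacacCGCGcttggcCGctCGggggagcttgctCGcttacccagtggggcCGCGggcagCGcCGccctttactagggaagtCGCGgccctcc
Aida: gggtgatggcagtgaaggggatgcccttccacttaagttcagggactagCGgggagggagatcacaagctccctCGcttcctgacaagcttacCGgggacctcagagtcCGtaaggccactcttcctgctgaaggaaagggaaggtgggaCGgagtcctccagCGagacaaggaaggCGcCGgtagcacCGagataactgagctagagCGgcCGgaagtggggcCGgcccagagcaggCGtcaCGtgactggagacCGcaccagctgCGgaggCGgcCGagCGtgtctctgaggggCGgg
Gm9257: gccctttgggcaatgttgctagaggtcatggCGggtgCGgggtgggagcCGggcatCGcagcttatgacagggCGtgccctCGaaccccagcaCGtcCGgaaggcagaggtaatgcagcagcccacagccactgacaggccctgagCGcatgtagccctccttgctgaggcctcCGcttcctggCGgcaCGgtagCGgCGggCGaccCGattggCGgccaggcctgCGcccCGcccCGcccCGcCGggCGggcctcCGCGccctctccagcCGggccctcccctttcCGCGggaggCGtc
The Agtr1b window holds 5 CG dinucleotides and the Grm7 window 15, against 18 in Irak2, 20 in Aida and 29 in Gm9257. These 5 windows do not show the order of their classes. Over all matched windows the median CG count was 15 with H3K4me1 after both treatments, 11 after 4-OHT alone and 10 after neither. In the Gm9257 window 39.2% of all 51-base runs were found again in the promoters of 4 other genes, and the other 4 windows had none. Sequenced tags were 50 or 51 bases long in the untreated and 4-OHT libraries and 57 to 60 in the MM-401 libraries.

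The peaks were small. Their width had a median of 992.5 bp (quartiles 793 and 1362) against 2440 bp for the 13813 narrow gene-end peaks with H3K4me1. They held a median of 2.67 tags per M (quartiles 1.35 and 7.29) against 32.0, and 2.93 tags per M per kb against 12.6. Fewer than 60 tags were counted in 184 of the 404 peaks, and 240 or more in 73. The width limit removed nothing, since no gene-end peak of 5000 bp or more lacked H3K4me1. Among the widest were those of the testis-expressed gene Tex13b at 3813 bp and of the shared promoter of Aida and Brox at 3684 bp. Just inside the distance limit lay the peaks of Hdac11 and Piwil1, both 967 bp from a gene end, and just outside it those of A930033H14Rik and Spock1, both at 1001 bp.

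**Figure D1:**
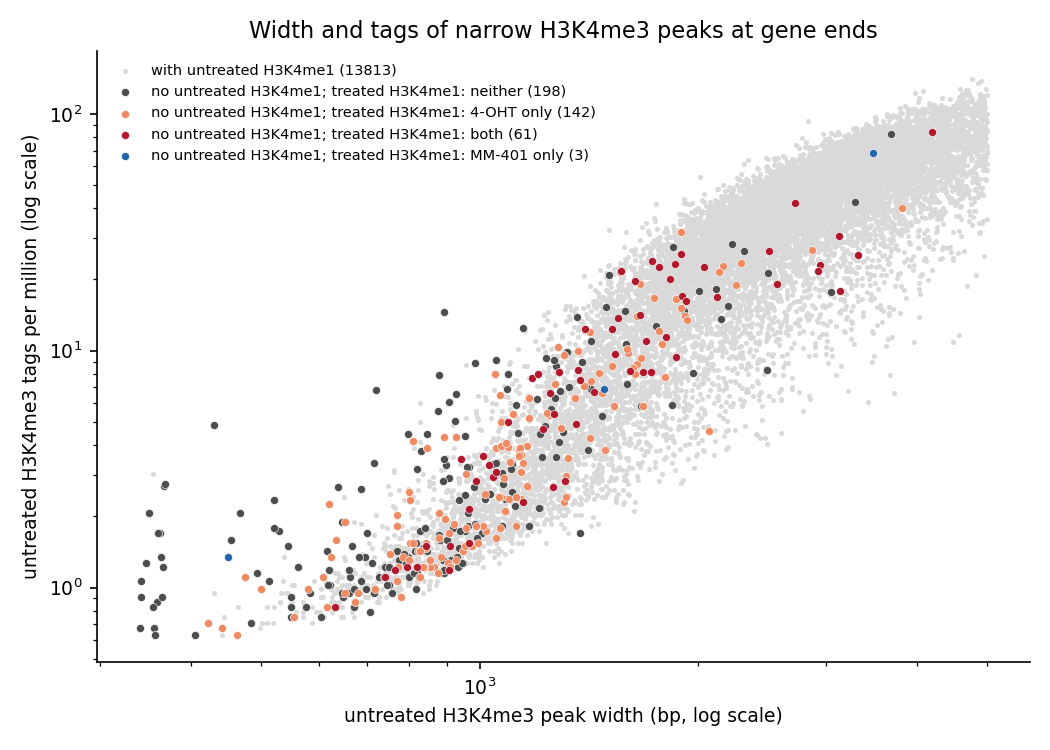
Untreated H3K4me3 peaks under 5000 bp at gene ends, by width (bp) and tags per M, both on log scales; grey points are the 13813 peaks with untreated H3K4me1 and coloured points the 404 without, by the treatments after which H3K4me1 was called. The coloured points gather at the lower left, with a median of 992.5 bp and 2.67 tags per M, and few reach the width and tags of the grey points at the upper right.

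In position they lay mostly at gene starts. Of the 404 peaks, 251 overlapped a gene end itself and 232 (57.4%, 52.4 to 62.3) lay within 1.0 kb of a start in the RefSeq promoter table. Of all 13813 narrow gene-end peaks with H3K4me1 the share was higher, at 66.6%. Among the 328 of the 404 whose gene is in that table it was 70.7%, but the comparison peaks were not restricted in that way. Ends of 2 or more genes, as at the divergent Aida and Brox pair, were reached by 28 peaks (6.93%, 4.65 to 9.86), against 16.0% of the comparison peaks. In all 413 genes were involved, and 19 of them had more than 1 of the peaks.

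H3K4me2 overlapped 377 of the 404 peaks in untreated cells (93.3%, 90.4 to 95.6). The share was 97.6% over all untreated H3K4me3 peaks and 85.6% over the 8696 without H3K4me1. Mll1 peaks overlapped 0 of 404, which allows a share of up to 0.743% by the rule that a count of 0 allows 3, and of up to 0.909% by the exact interval. They overlapped 3.56% of all H3K4me3 peaks and 5.56% of the narrow gene-end peaks with H3K4me1, but 0.567% of the narrow peaks without H3K4me1 away from gene ends. Both of these measures are outside the rule. The Mll1 list has 4004 peaks, so absence from it does not exclude binding under the caller's threshold, and the part of peak strength in the difference was not tested.

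H3K4me1 was called at 64 of the 404 peaks after MM-401 (15.8%, 12.4 to 19.8) and at 203 after 4-OHT (50.2%, 45.3 to 55.2). Over all 8696 untreated H3K4me3 peaks without H3K4me1 the corresponding shares were 3.97% and 24.4%. Both treatments together gave H3K4me1 at 61 peaks (15.1%, against 3.29% over all such peaks), 4-OHT alone at 142, MM-401 alone at 3, and neither at 198 (49.0%). Narrow peaks without H3K4me1 that lay away from gene ends, 8287 in number, carried it after MM-401 at 3.34% and after 4-OHT at 23.1%. The MM-401 values depend on the length of the lists. With each list held to the same number of top-scoring peaks, the rule gave 883 peaks. After MM-401 51.5% of them carried H3K4me1, 57.0% did so after 4-OHT, and 39.4% after both. This setting cut the untreated H3K4me1 list from 119739 to 82150 peaks and left the MM-401 list whole. Sites whose untreated H3K4me1 peak was cut count as without it, so these are not shares of the 404 peaks.

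The reverse count sets a scale for these shares. By the same rule applied to the 4-OHT lists, 260 of 13837 narrow gene-end peaks had no H3K4me1 after 4-OHT, and 46 of them (17.7%, 13.3 to 22.9) overlapped untreated H3K4me1. Applied to the MM-401 lists it gave 625 of 12672 peaks, of which 456 (73.0%, 69.3 to 76.4) overlapped untreated H3K4me1. Loss thus outnumbered appearance for MM-401, with the shallowest H3K4me1 library, and appearance outnumbered loss for 4-OHT, with the deepest. The part of depth in these counts was not tested.

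**Figure D2:**
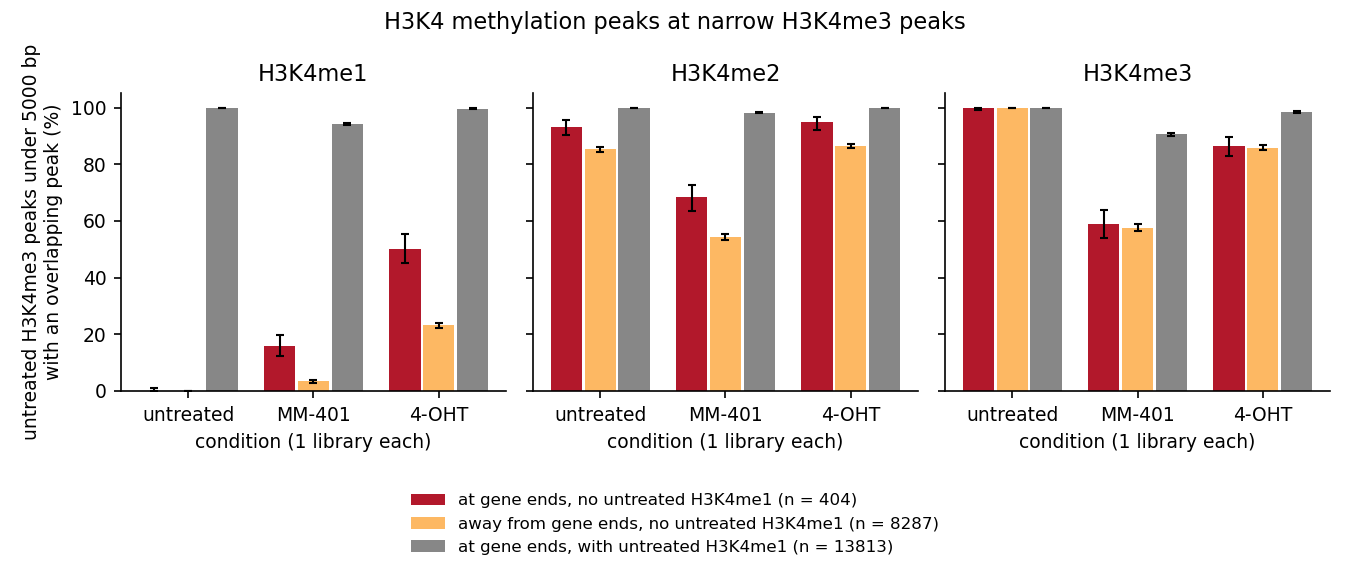
Share of narrow untreated H3K4me3 peaks overlapped by a peak of each mark in each condition (%), 1 library per bar, with exact 95.0% intervals; red bars are the 404 gene-end peaks without untreated H3K4me1, yellow the 8287 peaks away from gene ends without it, grey the 13813 gene-end peaks with it. The red H3K4me1 bars stand at 15.8% after MM-401 and 50.2% after 4-OHT, and untreated H3K4me1 is 0% by choice.

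The treated H3K4me1 peaks were small, and most had their summit inside the H3K4me3 peak. After MM-401 the overlapping H3K4me1 peaks held a median of 1.94 tags per M (quartiles 1.61 and 2.53), against 4.28 for the whole list. After 4-OHT the median was 1.36 (quartiles 0.988 and 1.98), against 2.96. Their scores stood at the median percentiles 15.0 and 20.6 of their lists. The untreated list reached down to 0.488 tags per M, and 65 of the 203 peaks after 4-OHT and 40 of the 64 after MM-401 exceeded its lower quartile of 1.74 tags per M. The summit fell inside the H3K4me3 peak at 59 of 64 (92.2%) and at 184 of 203 (90.6%, 85.8 to 94.3), compared with 85.0% and 81.2% for the narrow gene-end peaks with untreated H3K4me1 in the same lists. At least 50% of the H3K4me3 peak was covered at 45 of 64 and 178 of 203. All of it was covered at 26.6% and 43.4%, against 38.1% and 52.8% of the comparison peaks. At sites with 240 tags or more the median share covered was 43.7% after MM-401 and 63.1% after 4-OHT. Untreated H3K4me1 was usually distant, with a median gap of 12.2 kb, and the treated peaks touched no untreated H3K4me1 peak at 62 of 64 and 189 of 203 sites.

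Peaks with H3K4me1 after both treatments included receptor and cytochrome genes. At Grm7, a metabotropic glutamate receptor gene, untreated, MM-401 and 4-OHT cells had 12.3, 17.6 and 16.7 H3K4me3 tags per M. H3K4me1 there was 3.69 tags per M after MM-401 and 3.68 after 4-OHT, with the nearest untreated H3K4me1 peak 139 kb away. The H3K4me1 peaks covered all of the H3K4me3 peak and their levels were alike. At Agtr1b, an angiotensin II receptor gene, H3K4me3 was 4.91, 3.33 and 3.60 tags per M in the same order, and H3K4me1 2.21 and 2.07 after the treatments. At Cyp2j9, a cytochrome P450 gene, H3K4me3 was 7.52, 5.72 and 7.27 and H3K4me1 3.78 and 2.69. Its neighbour in the same gene family, Cyp2j13, had 3.28, 2.78 and 3.45 of H3K4me3 and 2.16 and 1.96 of H3K4me1. In these 4 genes H3K4me3 stayed within 2-fold of untreated.

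Ikzf3, a lymphoid transcription factor gene, had 13.7, 10.7 and 13.1 H3K4me3 tags per M, with 3.15 and 2.74 of H3K4me1. Antxr1, which encodes an anthrax toxin receptor, had 23.8, 25.7 and 22.8, with 3.56 and 2.88 of H3K4me1. Arhgef28, a guanine nucleotide exchange factor gene, had 22.7, 20.2 and 19.5, with 4.32 and 3.06. In each of these 3 the MM-401 library had the higher H3K4me1 value. Edar, the ectodysplasin receptor gene, had 6.65, 4.10 and 5.53 of H3K4me3 and 2.70 and 2.10 of H3K4me1. The other genes named by the rule in this group were Tmco5, Ctsh (cathepsin H), Ankrd60, Iftap, Pcdha5 and the Bop1/Mroh1 end, with 1.20 to 7.12 H3K4me1 tags per M. Over the 61 peaks the level was higher after 4-OHT at 20, and 56 of the 61 lay within 2-fold between the treatments. These sites had to be called in both lists, whose smallest H3K4me1 peaks held 0.720 tags per M after MM-401 and 0.405 after 4-OHT. Both counts therefore depend in part on that choice and are descriptions.

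**Figure D3:**
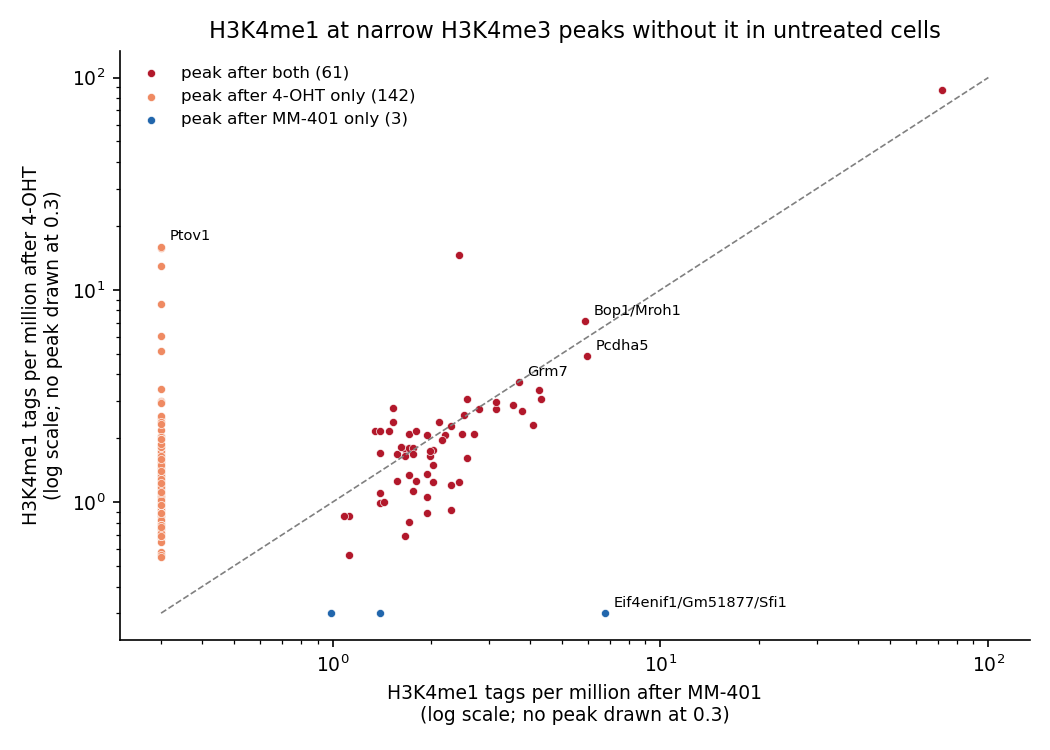
H3K4me1 tags per M after MM-401 (horizontal) and after 4-OHT (vertical) at the 206 sites with a treated peak, log scales, with sites lacking a peak drawn at 0.3 and the dashed line marking equal values. The 61 sites with both lie near the line, most of them between 1 and 5 tags per M, and the 142 sites of 4-OHT alone form the column at the left.

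Among the sites with H3K4me1 after 4-OHT alone, the peaks named here by score either overlapped untreated H3K4me1 or stood free of it. At Ptov1, D1Pas1 (a DEAD-box helicase gene), Yipf3 and Irak2 (a kinase of interleukin-1 receptor signalling) an untreated H3K4me1 peak lay 126 to 377 bp away, and the 4-OHT peak was 5783 to 8672 bp wide and held 8.58 to 16.0 tags per M. At these 4 the treated peak overlapped untreated H3K4me1 as well. Irak2 had 8.79, 6.81 and 8.52 H3K4me3 tags per M, while D1Pas1 had 0.989 in untreated cells, no peak after MM-401 and 36.0 after 4-OHT, in a peak of 5531 bp. Abra and the Gm38999/Lim2 end were likewise reached by 4-OHT peaks that overlapped untreated H3K4me1, with 3.42 and 6.06 tags per M. At Ptcra (the pre-T cell receptor alpha chain) and Lrrc72 the 4-OHT peak stood free, with 2.48 and 2.38 tags per M. Ptcra had 2.65, 1.70 and 2.23 H3K4me3 tags per M, and Lrrc72 6.29, 1.39 and 3.60. Over all 142 sites H3K4me1 had a median of 1.22 tags per M and the H3K4me1 peak a median width of 1231 bp.

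MM-401 alone gave H3K4me1 at 3 sites. The end shared by Eif4enif1, Gm51877 and Sfi1 had 68.6, 90.0 and 69.8 H3K4me3 tags per M and 6.80 of H3K4me1 after MM-401. Gm8108 had 6.89, 8.12 and 6.89, with 1.4 of H3K4me1. Tuba1b, an alpha-tubulin gene, had 1.35 and 2.01 in untreated and 4-OHT cells but 122 after MM-401, where the 450 bp peak was part of a 4884 bp one. Its H3K4me1 peak held 0.990 tags per M.

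Among the 198 sites without H3K4me1 in any list were some of the strongest H3K4me3 peaks. Aida/Brox, the start of an axin-binding protein gene and of a BRO1-domain gene, had 81.8, 111 and 88.7 H3K4me3 tags per M in untreated, MM-401 and 4-OHT cells. Neither H3K4me1 nor H3K4me2 was listed there in any condition, the only such case among the 10 strongest of these sites. Whether the lists used here hold every peak called at that promoter is not known, so its missing marks are a statement about the lists alone. Cldn34c1, a claudin-like gene on X, had 42.4, 42.8 and 38.1 of H3K4me3 and 14.0, 15.5 and 12.1 of H3K4me2. Gm9257 had 28.3, 40.5 and 29.0 of H3K4me3. Zmym2, a zinc finger gene of a corepressor complex, had 27.4, 98.5 and 84.4, and its peak of 1843 bp lay in peaks of 4630 and 4342 bp after the treatments. The rest of those 10 were 9030624G23Rik, Gm40847, Gm38699, Gm3993, Nap1l3 (a nucleosome assembly protein-like gene) and 1700013H16Rik, with 17.7 to 26.3 tags per M untreated. A site without a listed peak can still hold signal under the caller's threshold.

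The share with H3K4me1 after treatment was higher among stronger H3K4me3 peaks. After 4-OHT it was 30.2% (19.2 to 43.0) of the 63 peaks with fewer than 30 tags, then 44.6%, 55.0% and 53.7% with limits at 60, 120 and 240 tags, and 68.5% (56.6 to 78.9) of the 73 with 240 or more. After MM-401 it was 3.17%, 8.26%, 11.3%, 22.4% and 38.4% in the same classes. Peaks at an annotated start and elsewhere carried it at 15.5% and 16.3% after MM-401 and at 46.6% and 55.2% after 4-OHT, with overlapping intervals. Sites with untreated H3K4me1 within 1.0 kb carried it at 12 of 57 after MM-401 and 38 of 57 after 4-OHT, the others at 52 of 347 and 165 of 347.

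H3K4me3 itself was called again at 238 of the 404 sites after MM-401 and at 350 after 4-OHT. It was missing at 166 (41.1%, against 38.2% of all untreated H3K4me3 peaks) and 54 (13.4%, against 8.19%). Narrow peaks without H3K4me1 away from gene ends lacked it at 42.3% and 14.1%. The MM-401 share kept, 58.9%, became 94.0% with lists of equal number. That setting also cut the untreated H3K4me3 list from 52912 to 32191 peaks, leaving out its lowest-scoring ones. Of the sites without it, 52 lacked it after both treatments, 114 after MM-401 alone and 2 after 4-OHT alone. The missing peaks were weak, with a median of 34 untreated tags after MM-401 (none above 138) and 31 after 4-OHT (none above 46). Of the 73 sites with 240 tags or more, all 73 kept H3K4me3 in both.

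Genes without H3K4me3 after MM-401 included Ccdc152 and Bach2, a transcription factor gene of lymphocytes. Ccdc152 had 5.46 tags per M untreated, no peak after MM-401 and 5.68 after 4-OHT, and Bach2 4.99, no peak and 4.69. Wfdc16, Gm15262, Zfp758, the Atp2a1/Rabep2 end, Tex33 and Abra followed, at 3.36 to 5.42 untreated and 2.35 to 4.81 after 4-OHT. The genes without H3K4me3 after 4-OHT that are named here, the highest by score, had 1.19 to 1.74 tags per M untreated. Over all sites without it the median untreated tags were alike, 31 for 4-OHT and 34 for MM-401. Tnnt2 (cardiac troponin T) and Tubb1 (the beta-tubulin of platelets) lacked it after both treatments and had 1.23 and 1.38 H3K4me1 tags per M after 4-OHT. Krtap10-10 had 1.74 untreated and 1.24 after MM-401. H2bfm, Tktl1, Tdg-ps, Ackr2 and Arhgef38 had no H3K4me3 peak after either. Of the 47 sites without H3K4me3 after 4-OHT that had H3K4me2 in untreated cells, 43 had it after 4-OHT, and of the corresponding 148 for MM-401, 56 had it after MM-401.

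Where H3K4me3 was called in both conditions the median level was close to untreated. The median log2 ratio of tags per M to untreated was 0.15 after MM-401 (238 sites) and -0.04 after 4-OHT (350 sites), and that of H3K4me2 0.25 and -0.07. Sites with and without new H3K4me1 after 4-OHT had median H3K4me3 log2 ratios of -0.05 and -0.04. After MM-401 the value was at least 2-fold higher at 23 of 238 sites (9.66%, against 3.95% of all peaks) and at least 2-fold lower at 6 (2.52%, against 6.43%). The highest ratio was at Tuba1b and the lowest at Lrrc72. After 4-OHT 5 of 350 sites were 2-fold higher (1.43%, against 6.96%) and 5 lower (1.43%, against 0.984%). At Tuba1b, Zmym2 and Bex1 the peaks of 450, 1843 and 942 bp lay in peaks of 4884, 4630 and 2993 bp after MM-401, so these values hold tags from outside the original peak.

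H3K4me2 was called at 276 sites after MM-401 and 383 after 4-OHT, beside 377 untreated. Of those 377, 104 (27.6%) had none after MM-401 and 5 (1.33%) none after 4-OHT, against 11.6% and 0.779% of all H3K4me3 peaks with untreated H3K4me2. Narrow peaks without H3K4me1 away from gene ends had H3K4me2 at 85.3% untreated, 54.3% after MM-401 and 86.5% after 4-OHT. The shares here were 93.3%, 68.3% and 94.8%. Filtered H3K4me2 tags numbered 40.1, 19.8 and 48.6 M in the same order, and the part of depth and peak strength was not tested. No mark at all was listed after MM-401 at 103 of the 404 sites (25.5%, against 9.07% of all untreated H3K4me3 peaks) and after 4-OHT at 7 (1.73%, against 0.841%).

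The X chromosome held 99 of the 404 peaks (24.5%). Of its 491 narrow gene-end H3K4me3 peaks 20.2% (16.7 to 24.0) lacked H3K4me1, compared with 2.19% (1.96 to 2.45) of the 13718 on autosomes. On Y 4 of 8 did, at Usp9y, Zfy1 and at 2 sites of Uba1y. X peaks of the narrow gene-end class had fewer H3K4me3 tags, with a median of 491 against 800 on autosomes. By classes of these tags, the share without H3K4me1 under 30 tags was 63.2% on X against 23.3% on autosomes. At 240 tags or more it was 9.54% against 0.378%, and the intervals were apart in each of the 5 classes. With each condition's own H3K4me1 list, the share without H3K4me1 on X was 33.6% after MM-401 and 9.11% after 4-OHT, against 3.88% and 1.60% on autosomes. Of the 99 X sites 19 carried H3K4me1 after MM-401 and 60 after 4-OHT (60.6%, 50.3 to 70.3), and of the 301 autosomal ones 45 and 143 (47.5%, 41.8 to 53.3). The H3K4me1 lists placed 2244 peaks on X in untreated cells, 1469 after MM-401 and 2774 after 4-OHT. Classes of H3K4me3 tags do not make the H3K4me1 signal equal between X and autosomes. The part of peak strength and the number of X copies per cell were not tested.

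**Figure D4:**
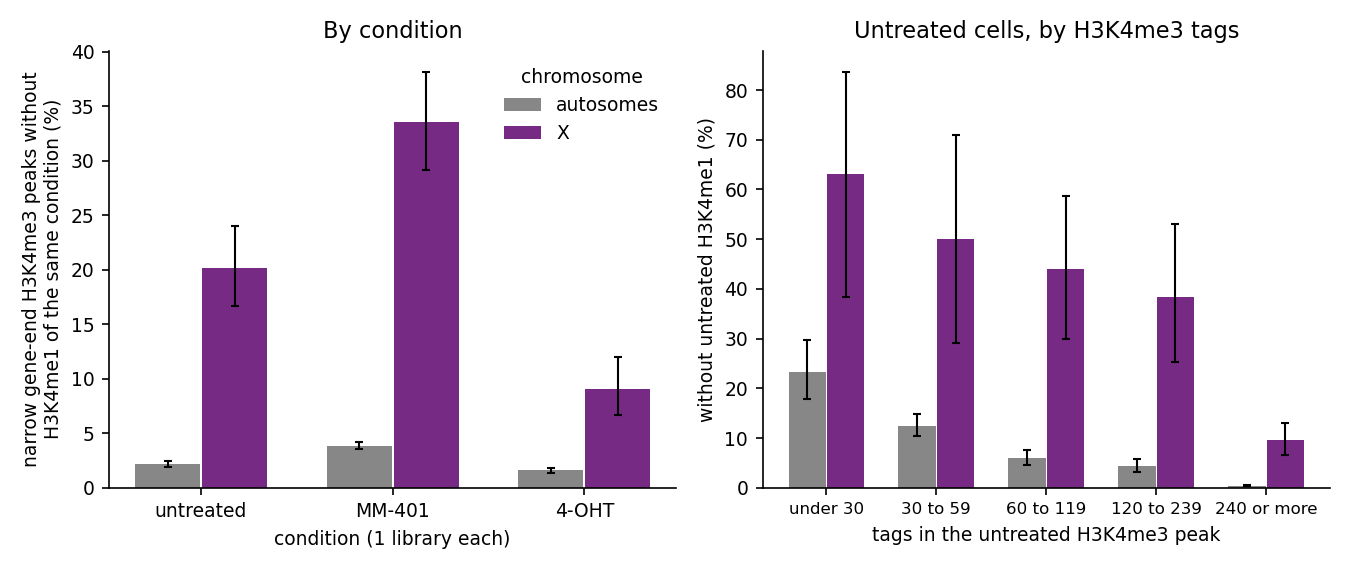
Share of narrow gene-end H3K4me3 peaks without H3K4me1 (%) on X (purple) and autosomes (grey), with exact 95.0% intervals, by condition with that condition's own lists (left) and by tags in the untreated peak (right). The purple bars are higher in each condition, 20.2% against 2.19% in untreated cells, and in each class of tags.

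Genes of the X sites with 240 tags or more included the following, picked after their values were seen. Septin6, a filament-forming GTPase gene, had 26.3, 20.8 and 24.8 H3K4me3 tags per M, with 1.53 and 2.38 of H3K4me1 after MM-401 and 4-OHT. Hs6st2, a heparan sulfate sulfotransferase gene, had 23.0, 30.6 and 23.6, with 1.53 and 2.77. In both genes H3K4me1 was higher after 4-OHT, though each value rests on few tags. The ubiquitin ligase gene Pja1 had 26.6, 29.6 and 24.0 and carried H3K4me1 after 4-OHT alone, at 1.65. Tex13b had 39.9, 20.4 and 33.8, with 2.93 of H3K4me1 after 4-OHT.

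A cluster of X genes at 135 to 140 Mb held 16 of the peaks among its 37 narrow gene-end peaks. It contains the Tceal, Bex, Arxes and Tmsb15 genes, and in that group and its neighbours 14 of 33 narrow peaks lacked H3K4me1, 10 of them with H3K4me1 after 4-OHT and 3 after MM-401. Gprasp2, the gene of a receptor sorting protein, was the strongest with 19.0, 20.1 and 16.1 H3K4me3 tags per M and 1.21 of H3K4me1 after 4-OHT. Bex1 had 3.48, 18.4 and 19.2, in wider treated peaks, with 2.30 and 0.923 of H3K4me1. Rab9b, a vesicle transport GTPase gene, had 13.9, 8.74 and 12.5 and no H3K4me1 peak. The families of this and the next paragraph were gathered after the peaks were known, so their counts are descriptions.

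Other gene families and naming classes held several of the peaks. Predicted genes named Gm accounted for 63 peaks, of which 49 (77.8%, 65.5 to 87.3) had H3K4me1 after neither treatment, against 149 of the other 341 (43.7%, 38.4 to 49.1). Many lay on chromosome 12 at 20 to 25 Mb, a stretch with 10 of the 404 peaks, and on chromosome 14 below 10 Mb, with 14. Clustered protocadherins, cell adhesion genes of neurons, had 7 peaks with 28 to 210 tags, and 4 of them carried H3K4me1 after 4-OHT. Keratin genes and their associated proteins had 8, with 28 to 98 tags, of which H3K4me3 was called again at 2 after MM-401. The X-linked Rhox, Xlr, Fthl17 and Magee genes, many of them active in the germ line, were counted with Ct55, Mycs and Spin2d. Together they had 13 peaks, 10 of them with no H3K4me1 after either treatment. Retrotransposon-derived Rtl genes had 5 of their 9 narrow peaks here, and Nap1-like genes 3 of 4, at Nap1l2, Nap1l3 and Nap1l5.

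Of the gene groups listed by function, sensory receptors had the highest share. Olfactory and vomeronasal receptor genes had 14 of their 36 narrow peaks without H3K4me1 (38.9%), where 2.84% is the share over all narrow gene-end peaks. Their peaks were weak, at 28 to 226 tags, and H3K4me1 appeared at 5 after 4-OHT and at 1 after MM-401. Olfr951 was the strongest, with 8.94, 10.1 and 10.0 H3K4me3 tags per M and no H3K4me1. Olfr1358 had 2.93 and 1.93 in untreated and 4-OHT cells, no peak after MM-401, and 1.98 and 1.73 of H3K4me1 after the treatments. H3K4me3 was called again at 6 of the 14 after MM-401 and at all 14 after 4-OHT.

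Zinc finger genes named Zfp, mostly KRAB-type repressors, had 15 of 399 narrow peaks here (3.76%). H3K4me1 appeared at 2 of them after MM-401, Zfp820 and Zfp957, and at 7 after 4-OHT. Zfp970 had 12.7, 16.1 and 12.4 H3K4me3 tags per M and no H3K4me1, while Zfp300 had 15.2, 13.9 and 14.7, with 1.81 of H3K4me1 after 4-OHT. Clustered histone genes had 4 of 42, at H2ac18/H3c14, H2ac19/H3c15, H2ac23/H4c17 and H2ac24/H4c18, with 52 to 69 tags and no H3K4me1 in any list. Germline genes had 3 of 37, Piwil1 (a piRNA-binding protein), Rhox13 and Tex16, none with H3K4me1. Rhox13 had 13.6, 5.72 and 10.0 H3K4me3 tags per M.

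The counts in housekeeping groups were small, and 2.84% is the share over all narrow gene-end peaks. Cytosolic ribosomal proteins (2.08%) and translation initiation (2.27%) were near that share, while vesicle transport had 1.65% and the respiratory chain 1.14%. Cytosolic ribosomal proteins had 1 of 48 narrow peaks without H3K4me1, Rpl39l, with 9.78, 8.12 and 12.5 H3K4me3 tags per M and 1.39 of H3K4me1 after 4-OHT. The respiratory chain had 1 of 88, Cox7b2, with 4.55, 2.09 and 5.83 and no H3K4me1. Vesicle transport had 3 of 182, Rab39b, Rab9b and Vps9d1, none with H3K4me1. Translation initiation had 1 of 44, the Eif4enif1 end named above. Mitochondrial ribosomal proteins, proteasome subunits, aminoacyl-tRNA synthetases, splicing factors, RNA polymerases, DNA repair, Rnf and Trim ligases, ciliary transport, pluripotency genes and the H3K4 methylation machinery had 0 each, of 10 to 131 narrow peaks. For pluripotency genes and the methylation machinery these were 0 of 10 and 0 of 17, too few peaks to set a count of 0 apart from the 2.84%. The same holds for RNA polymerases (0 of 27), the proteasome (0 of 48), aminoacyl-tRNA synthetases (0 of 49), splicing factors (0 of 55) and ciliary transport (0 of 63). The larger groups were not tested against that share.

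The promoter sequences differed from those of the comparison peaks in 2 ways. RefSeq windows of 300 bases were matched to 190 of the 404 sites (221 windows of 193 genes). They held a median of 12 CG dinucleotides, against 21 at narrow gene-end peaks with H3K4me1 and 13 over all 21237 protein-coding windows. The ratio of observed to expected CG was 0.539, 0.755 and 0.567 in that order, and 39.8% of windows reached 0.6 against 71.9% of the comparison. Second, 70 of the 221 windows (31.7%) shared a 51-base run with the promoter of another gene, against 1.36% of the comparison windows and 8.85% of all. By response to treatment the share was 11.6% at sites with H3K4me1 after both, 18.2% after 4-OHT alone and 49.1% after neither. Counted by site, 41 of 59 with such a run and 51 of 131 without one had H3K4me1 after neither treatment. The part of repeated sequence in these counts was not tested.

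**Figure D5:**
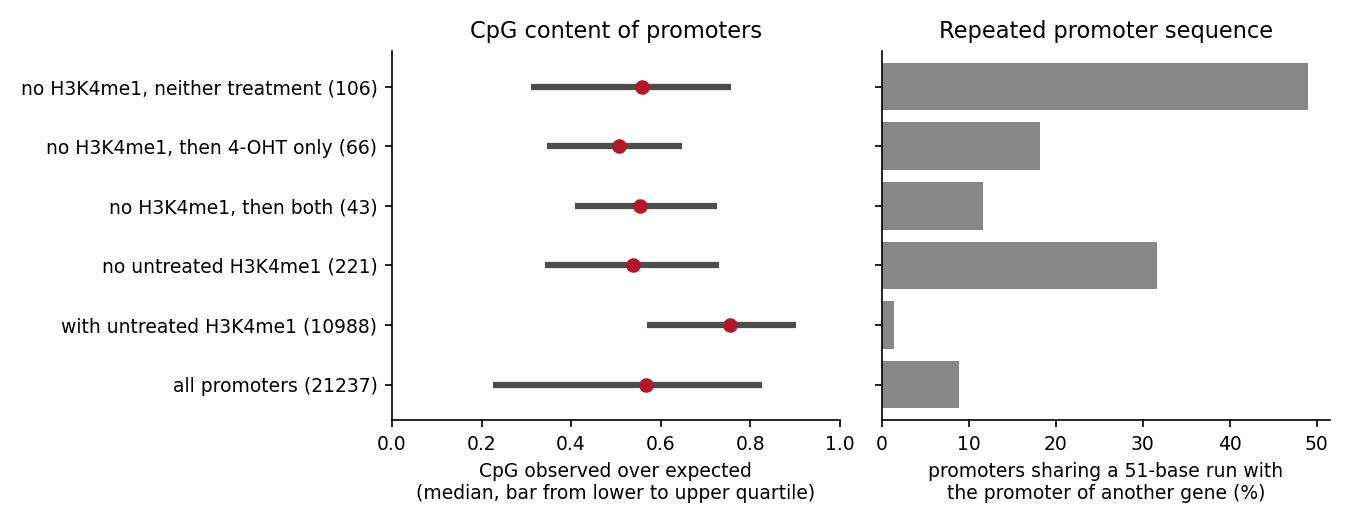
CpG observed over expected in 300-base promoter windows (left; point, median; bar, lower to upper quartile; number of windows in brackets) and share of windows with a 51-base run found in the promoter of another gene (right, %), by H3K4me1 after treatment. Windows at sites without untreated H3K4me1 have a median ratio of 0.539 against 0.755 with it, and the share with a repeated run is 49.1% where H3K4me1 appeared after neither treatment.

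Of 8 short motifs counted on both strands of the same windows, 3 are given, and their matches may share bases. GGGCGG, the box of Sp1 and Klf factors, was in 48.4% of windows, against 66.4% of the comparison and 46.2% of all promoters. It was in 67.4% of the 43 windows (34 sites) with H3K4me1 after both treatments. The share was 43.9% of 66 windows (62 sites) after 4-OHT alone and 41.5% of 106 windows (92 sites) after neither. Some sites gave several overlapping windows, so windows are not independent and the motif shares are given without intervals. TATAAA, the TATA box, was in 14.5%, against 6.40% and 12.6%. CCAAT, bound by NF-Y, was in 43.0%, against 37.6% and 38.2%, and by response in 25.6% after both, 56.1% after 4-OHT alone and 43.4% after neither. TATAAA was in 20.9%, 12.1% and 14.2% of these classes. In CG content and in these 3 motifs the windows were closer to all promoters than to the narrow peaks with H3K4me1. A match says that the letters are present in the window and nothing of binding.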

How the data were processed

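The files are 10 peak lists, 1 per precipitated library, from mouse embryonic stem cells; 4 input libraries served as controls of the peak calls. Per the file headers peaks were called with MACS 1.4.2 in each library alone with a p cutoff of 1e-05, while the submitters' processing notes name Bowtie2, SAMtools 1.5, MACS2 and mm10. The deposited counts give the tags of each peak once duplicates were removed and are unscaled. The deposited score is minus 10 times log10 of the caller's p and was used to rank peaks within a list. The deposited percent is the caller's false discovery rate. Other deposited values used were peak width and summit position.

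Tags were divided by the filtered tags of the library (tags per M). Where several peaks overlapped a site their tags were summed. Overlap meant at least 1 bp. Log2 ratios were taken only where both conditions had a peak. Genes were the protein-coding genes of a RefSeq table (GRCm38.p6), and promoter windows came from the RefSeq promoter table of that assembly. Overlaps were computed in Python 3.11.15 (pandas 2.3.3, numpy 2.4.6, scipy 1.17.1) and tested on simulated data. Figures used matplotlib 3.10.9.

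The sites and the gene lists were chosen with earlier results of these data known. Named genes were the strongest by score in each H3K4me1 response, those without treated H3K4me3, the widest, and list members; other names were added after their values were seen. Some sites that the rule names are not reported here. Alternatives were overlap, width, distance, score, false discovery rate, list length, chromosomes and predicted genes. No p-values were computed.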

Additional observations from a re-analysis of the deposited data

How the results depend on the processing

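No paired analysis was possible because each group is 1 library and the results come from no test. Of 60 values under other settings, 43 stayed within the counting interval of the main value. Requiring 50% of the site to be covered gave H3K4me1 shares of 11.1% after MM-401, 44.1% after 4-OHT and 10.4% after both. A score of at least 100 in all lists (705 sites) gave 10.8%, 57.2% and 10.5%, with H3K4me3 kept at 72.5% after MM-401 and 91.8% after 4-OHT. Lists of equal number (883 sites) gave 51.5%, 57.0% and 39.4%, with H3K4me3 kept at 94.0% and 93.4%. This setting and the score limit both shortened the untreated H3K4me1 and H3K4me3 lists. Their sites therefore include some with a called untreated H3K4me1 peak. The share of H3K4me3 kept after MM-401 was 53.5% with gene ends within 2 kb and 68.5% within 1.0 kb of an annotated start. Added after seeing the data, autosomes alone gave 53.2% for that share, and leaving out genes named Gm gave H3K4me1 at 56.0% after 4-OHT. The cause of these moves was not tested, apart from the change of sites that each setting makes. A false discovery rate of at most 5% changed nothing. The smallest H3K4me1 peak held 0.720 tags per M after MM-401, 0.488 untreated and 0.405 after 4-OHT; the part of depth was not tested.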

Other observations

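Some of the sites form small gene families outside those described. The dynein light chain genes Dynlt1a, Dynlt1c and Dynlt1f on chromosome 17 each had 1 of the peaks. Dynlt1f had 16.5, 21.7 and 15.9 H3K4me3 tags per M in untreated, MM-401 and 4-OHT cells, Dynlt1c 6.61, 6.42 and 5.49, and Dynlt1a 0.95 and 0.98 in untreated and 4-OHT cells with no peak after MM-401. H3K4me1 appeared after 4-OHT at Dynlt1c and Dynlt1f, with 0.891 and 0.712 tags per M. The heat shock genes Hspa1a and Hspa1b held 3 peaks of 28 to 60 tags. The divergent collagen genes Col4a5 and Col4a6 shared 2 peaks, with 4.47 and 7.96 tags per M in untreated cells, against 3.87 and 6.50 with MM-401 and 3.90 and 6.21 with 4-OHT. These families were picked after their values were seen.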
